A study of Mus musculus with 6 samples.

Results

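The chemokine ligands and receptors measured here were the rows of a mouse plaque RNA count table whose whole symbol is Ccl, Cxcl, Ccr or Cxcr with a number and at most 1 further letter, together with Cx3cl1 and Cx3cr1. The rule left out Cxcl9, Cxcl10, Cxcr3, Cxcr2 and Ccl8. It gave 50 genes of 24062 in the table, of which 35 are ligand genes and 15 are receptor genes by symbol. No measured value entered the rule. All mice were C57BL/6 animals of a knockout line prone to atherosclerosis; 12 weeks of high-fat feeding were followed by 3 weeks on a low-fat diet (LFD), after which plaque was taken from the aortic arch. The ABT263 group (3 libraries) received 100 mg/kg of ABT263 by IP injection once daily, which the labels assign to LFD week 1, and the vehicle group (3 libraries) received no ABT263. ABT263 (navitoclax) inhibits antiapoptotic BCL-2 family proteins and is used to remove senescent cells. The vehicle, the sex and the age of the mice, and whether each library is a separate animal are not stated in the sources used here, so p-values measure the spread between these libraries, which may in part be technical.

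Chemokines are small secreted or membrane-bound proteins that bind G protein-coupled receptors on leukocytes and direct their movement, retention and adhesion. Ligands are grouped by the spacing of their first cysteines into CC, CXC and CX3C families, and most inflammatory receptors accept several ligands. In atherosclerosis the axes of Ccr2 and Cx3cr1 are known for bringing monocytes into the arterial wall, Ccr7 for the exit and lymph node homing of leukocytes, and Cxcr4 for the retention of blood cells and progenitors.

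The libraries held 62930547 to 110452098 counts, and levels below are CPM (counts per 1e6 counts in genes) after TMM scaling. A count of 0 allows up to 3 counts, or 0.0278 to 0.0480 CPM depending on the library, and this limit covers counting error only. Some libraries stood apart. The summed level of 8 white adipocyte markers was 202, 4539 and 121 CPM in ABT263 replicates 1 to 3 and 64.7 to 286 CPM with vehicle. All 8 of them were highest in ABT263 replicate 2, and all 8 skeletal muscle markers were highest in ABT263 replicate 3. The sum of 8 blood endothelial markers was 1783 to 5198 CPM in the ABT263 libraries, against 3451, 498 and 4967 CPM in vehicle replicates 1 to 3. Macrophage, T cell and B cell marker sums were lower in every ABT263 library than in any vehicle library. The sum of 11 macrophage markers was 3701 to 7654 CPM with ABT263 and 7894 to 15287 CPM with vehicle, with 7 of the 11 not overlapping between the groups (6.31% of all genes tested were lower without overlap). That of 8 T cell markers was 32.8 to 90.9 CPM against 115 to 146 CPM (7 of 8 not overlapping), and that of 8 B cell markers was 4.96 to 15.3 CPM against 23.7 to 87.7 CPM (6 of 8 not overlapping). The sum of 10 dendritic cell markers, which include Ccl17 and Ccl22, overlapped at 172 to 577 CPM with ABT263 and 548 to 810 CPM with vehicle, with 1 of 10 lower without overlap. No marker of these 4 lists was at 0 in all libraries. In bulk samples, fewer cells of a type and less RNA per cell cannot be told apart.

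Most chemokine receptors were lower on average with ABT263, while the ligands went both ways. Of the 50 genes, 39 passed the filter on low counts (25 ligands and 14 receptors) and 6 had 0 counts in every library. The other 5 had counts but reached the minimum in too few libraries. Of the 14 receptors tested, 13 had a negative log2 fold change, with a median of -0.84, and of the 25 ligands 14 had, with a median of -0.19. The 13 receptor values ran from -3.06 (Ccr6) to -0.02 (Ccr1, SE 0.86). When single libraries were left out, 10 to 12 receptors had a negative value. Over all 15222 genes tested 49.9% had a negative log2 fold change and the median was 0.00080. The difference was not larger than the spread between libraries for any single gene after adjustment. The edgeR quasi-likelihood test called 0 of the 39 genes at an adjusted p of 0.05, against 0.0% of all genes, and the smallest adjusted p was 0.592. By DESeq2 the count was also 0 of 39 (1.01% of all genes called, smallest adjusted p among these genes 0.104), with 5 of the 39 given no adjusted p. These 5 were Ccl1, Ccl5, Ccl11, Ccl12 and Ccl24. At an unadjusted edgeR p under 0.05 there were 8 genes on the lower side (Ccl3, Ccl4, Ccl5, Cxcl16, Ccr6, Ccr7, Cx3cr1 and Cxcr5), against 3.68% of all genes, and 2 on the higher side (Ccl11 and Ccl24), against 4.7% of all genes. Since Ccr6 passed the filter through the vehicle libraries alone, its place among these 8 and among the 13 negative receptors follows in part from the filter. By DESeq2, 12 genes were at an unadjusted p under 0.05, against 11.3% of all genes. The count of 8 was 3 without vehicle replicate 2, 4 without vehicle replicate 3, 3 without ABT263 replicate 2 and 3 without both replicates 2. That of 2 was 1 without vehicle replicate 2, and 0 when ABT263 replicate 2, vehicle replicate 1 or vehicle replicate 3 was left out.

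Levels in the ABT263 and vehicle libraries did not overlap for 7 of the 39 genes. Ccl3, Ccl5, Cxcl16, Ccr6, Ccr7 and Cxcr5 were lower in all 3 ABT263 libraries than in any vehicle library (6.31% of all genes tested were), and Ccr10 was higher in all 3 (5.68% of all genes tested were). Ccr6 passed the filter through the vehicle libraries alone, so its place among the 6 follows in part from the filter. Without both replicates 2 the count was 12 on the lower side, against 19.7% of all genes tested, and 6 on the higher side, against 19.2%. Leaving out a single library also raised the share over all genes: the lower count was 10 without ABT263 replicate 1 (14.2% of all genes tested), 7 without ABT263 replicate 2 (9.17%) and 9 without vehicle replicate 2 (14.4%). Vehicle replicate 2 held the highest level for 18 of the 39 genes, a library that was highest for 30.0% of all genes tested. ABT263 replicate 2 held the lowest level for 13 of the 39, against 20.8% of all genes.

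**Figure D1:**
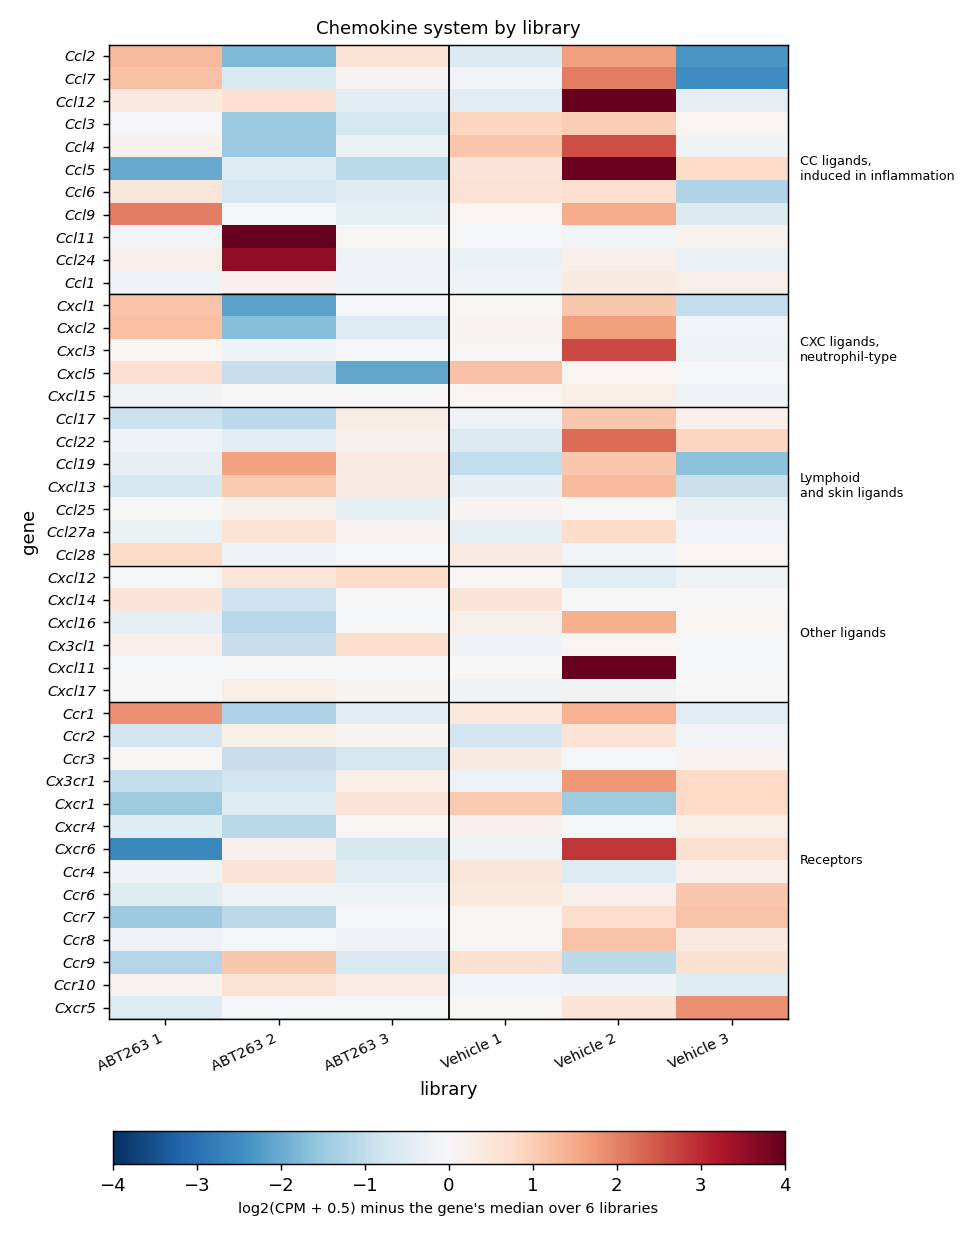
Level of the genes with any counts (rows, grouped by role) in each library (columns), as log2(CPM + 0.5) minus the gene's median over the 6 libraries; colours saturate at 4 in either direction. Vehicle replicate 2 was high for many ligands and for Cx3cr1 and Cxcr6, ABT263 replicate 1 was high for Ccl9 and Ccr1, and ABT263 replicate 2 was high for Ccl11 and Ccl24.

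Ccl3, Ccl4 and Ccl5, attractants of monocytes and T cells, were lower with ABT263 on average and gave the smallest p-values among all ligands. Ccl5, a ligand of Ccr1 and Ccr3 made by T cells and macrophages (chr11:83525778-83530518, mm10), had 1.93, 6.39 and 4.21 CPM in the ABT263 libraries, against 13.8, 151 and 16.1 CPM with vehicle. Every ABT263 library was below every vehicle library, and vehicle replicate 2 lay far above the rest. The log2 fold change was -3.86 (SE 1.09, unadjusted p = 0.0106), or -1.84 without vehicle replicate 2. Ccl3, a macrophage product that acts on Ccr1 (chr11:83647844-83649355), stood at 22.1, 7.93 and 14.2 CPM with ABT263 and at 43.1, 47.0 and 24.7 CPM with vehicle. Its groups did not overlap either, and no single library set the difference: the log2 fold change was -1.38 (SE 0.42, unadjusted p = 0.0150), and -1.79 to -1.07 when single libraries were left out. Ccl4, a related ligand whose gene lies next to Ccl3 (chr11:83662584-83664683), showed 12.0, 3.60 and 8.77 CPM against 23.7, 66.8 and 9.46 CPM, a log2 fold change of -2.03 (SE 0.77, unadjusted p = 0.0348), or -1.02 without vehicle replicate 2. Here ABT263 replicate 1 lay above vehicle replicate 3, so the groups overlapped.

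Macrophage and T cell markers were lower in the same libraries (sums above), and their part in the levels of Ccl3, Ccl4 and Ccl5 was not tested.

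Ccr1 and the ligands Ccl6 and Ccl9, which act on it in the mouse, followed another pattern, with ABT263 replicate 1 among the highest libraries. Ccl9 (chr11:83572919-83578636) reached 379 CPM in ABT263 replicate 1, with 85.5 and 69.8 CPM in ABT263 replicates 2 and 3, against 95.6, 255 and 62.1 CPM with vehicle. Ccr1, a receptor of monocytes and neutrophils (chr9:123962124-123968692), had 74.5, 8.58 and 14.9 CPM against 28.8, 55.5 and 14.9 CPM. For both genes ABT263 replicate 1 was the highest library and vehicle replicate 2 the next, so the spread within each group was larger than any difference between them (log2 fold changes 0.37, SE 0.80, and -0.02, SE 0.86). The sign turned with the libraries used: Ccl9 was -0.84 without ABT263 replicate 1, and Ccr1 was 0.58 without vehicle replicate 2. Ccl6, the ligand with the highest level per kilobase (chr11:83587882-83593087), stood at 532, 242 and 277 CPM against 574, 614 and 165 CPM, with overlapping groups and a log2 fold change of -0.36 (SE 0.55).

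Of the monocyte attractants that act on Ccr2, Ccl2 and Ccl7 were high in some libraries of each group and Ccl12 in vehicle replicate 2. Ccl2, the main monocyte attractant of plaque (chr11:82035571-82037453), had 58.4, 6.40 and 34.3 CPM with ABT263, against 16.1, 74.2 and 4.33 CPM with vehicle. Between the lowest and the highest library of a group the level thus spread widely, and the groups interleaved. The log2 fold change was 0.06 (SE 1.10), 1.69 without vehicle replicate 2 and -0.64 without ABT263 replicate 1. Its neighbour Ccl7, a related monocyte attractant, had 20.1, 5.45 and 9.24 CPM against 8.02, 36.9 and 1.14 CPM, so its highest and next highest libraries were those of Ccl2. Ccl12, a mouse ligand of Ccr2, was at 3.46, 4.28 and 1.68 CPM with ABT263 and at 1.70, 47.3 and 1.78 CPM with vehicle. Only vehicle replicate 2 departed from the others, and without it the log2 fold change of Ccl12 was 0.85 in place of -2.43 (SE 1.33). The receptor Ccr2, which marks inflammatory monocytes (chr9:124101950-124113557), varied less, with 9.48, 19.4 and 17.8 CPM against 9.5, 23.9 and 15.1 CPM and a log2 fold change of -0.05 (SE 0.41).

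The eosinophil attractants stood out in a single library. Ccl11 (eotaxin) had 0.124, 17.3 and 0.196 CPM in the ABT263 libraries and 0.160, 0.130 and 0.249 CPM in the vehicle libraries, and Ccl24 (eotaxin 2) had 0.248, 6.83 and 0.0561 CPM against 0.0320, 0.223 and 0.0293 CPM. Each was high in ABT263 replicate 2 alone, the library with the high adipocyte sum, in which all 8 adipocyte markers, 8 of 8 smooth muscle, 5 of 8 fibroblast and 5 of 6 lymphatic endothelial markers also peaked. That library was the highest for 3787 of all 15222 genes tested. The part of those markers in the levels of Ccl11 and Ccl24 was not tested. Their fitted log2 fold changes of 5.03 (SE 1.96) and 4.56 (SE 1.88) were -0.16 and 0.62 without that library. Ccr3, their receptor on eosinophils, had 1.36, 0.460 and 0.603 CPM with ABT263 and 1.81, 1.24 and 1.43 CPM with vehicle (log2 fold change -0.88, SE 0.52), and was lowest in the library where the ligands were highest.

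Of the CXC ligands that attract neutrophils, Cxcl1 and Cxcl2 were, like Ccl2, highest in ABT263 replicate 1 and vehicle replicate 2. Cxcl3 peaked in vehicle replicate 2 alone. Cxcl1, Cxcl2 and Cxcl3 lie with Cxcl5 and Cxcl15 in a cluster on chromosome 5 (90759360 to 90905938). The sequences before the starts of Cxcl1, Cxcl2 and Cxcl3, and of Ccl9 and Ccr1, are shown because these genes peaked in the same 1 or 2 libraries and each holds a match to the NF-kappa B consensus. They are the last 120 bases before the RefSeq start, 5′ to 3′ on the gene's strand (GRCm38.p6), with the match in capitals.
Cxcl1 (chr5:90891125-90891244, plus strand): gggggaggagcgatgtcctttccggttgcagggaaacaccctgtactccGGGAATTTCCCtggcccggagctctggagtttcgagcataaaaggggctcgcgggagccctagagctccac
Cxcl2 (chr5:90903779-90903898, plus strand): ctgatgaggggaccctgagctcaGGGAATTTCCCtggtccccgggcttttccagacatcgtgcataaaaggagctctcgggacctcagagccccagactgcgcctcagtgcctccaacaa
Cxcl3 (chr5:90785981-90786100, plus strand): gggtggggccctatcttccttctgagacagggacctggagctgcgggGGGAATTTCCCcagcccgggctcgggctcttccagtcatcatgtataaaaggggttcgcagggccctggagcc
Ccl9 (chr11:83578637-83578756, minus strand): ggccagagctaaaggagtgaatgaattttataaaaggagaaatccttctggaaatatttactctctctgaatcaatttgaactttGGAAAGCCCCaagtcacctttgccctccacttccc
Ccr1 (chr9:123968693-123968812, minus strand): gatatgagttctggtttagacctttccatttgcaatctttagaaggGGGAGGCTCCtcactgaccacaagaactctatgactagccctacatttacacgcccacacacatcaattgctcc

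Cxcl1, Cxcl2 and Cxcl3 carried the same 11 letters, first matched at 71, 97 and 73 bases before the start, which 2 overlapping matches of the consensus make up. The match of Ccl9 began 35 bases and that of Ccr1 74 bases before the start. The consensus, read on both strands in the 250 bases before each start, was found in 9 of the 34 genes here that had an entry (26.5%), and in 8.23% of all 27025 genes with one. TATAAA, read on the gene's own strand, was found in 7 of 23 ligands (30.4%), 1 of 11 receptors (9.09%) and 8.94% of all genes. An interferon-type element, GAAA repeated after any 2 bases and read on both strands, was found in 2 of the 34 (Ccl19 and Cxcl14; 5.88%) and in 3.46% of all genes. Ccl1, Ccl20, Ccr3 and Ccr6 also held the NF-kappa B consensus and were, like Cxcl3, not high in both ABT263 replicate 1 and vehicle replicate 2. The 5 genes shown, chosen for both features after their values were seen, thus do not link one to the other. These are matches of letters and say nothing of binding.

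Cxcl1, an attractant that acts through Cxcr2 (chr5:90891241-90893115), had 60.4, 5.77 and 26.0 CPM with ABT263 and 27.9, 57.1 and 13.2 CPM with vehicle. Cxcl2 had 9.84, 0.875 and 2.64 CPM against 4.26, 13.5 and 3.66 CPM. The lowest library of both was ABT263 replicate 2, and the groups overlapped (log2 fold changes -0.09, SE 0.85, and -0.68, SE 0.92). Without both replicates 2, that of Cxcl1 was 1.07. Cxcl3 reached 3.28 CPM in vehicle replicate 2 and stayed at or below 0.134 CPM elsewhere, with too few libraries past the filter. Cxcl5 had 14.7, 4.55 and 1.78 CPM with ABT263 and 21, 9.62 and 8.62 CPM with vehicle, and did not share the peak in vehicle replicate 2 (log2 fold change -0.90, SE 0.77). Cxcl15, a mouse chemokine of lung epithelium, was at most 0.223 CPM and was not tested. Cxcr1, a neutrophil receptor, was measured at 1.66, 3.54 and 7.78 CPM with ABT263 and 11.5, 1.64 and 9.46 CPM with vehicle (log2 fold change -0.80, SE 0.81), with vehicle replicate 2 as its lowest library. The sum of 8 neutrophil markers was 58.6 to 131 CPM with ABT263 and 129 to 280 CPM with vehicle, with 3 of 8 lower without overlap (6.31% of all genes tested were) and none at 0 in all libraries. The sum of 280 CPM was that of vehicle replicate 2, where 6 of the 8 markers were highest and Cxcr1 was lowest. The part of neutrophil markers in these levels was not tested.

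**Figure D2:**
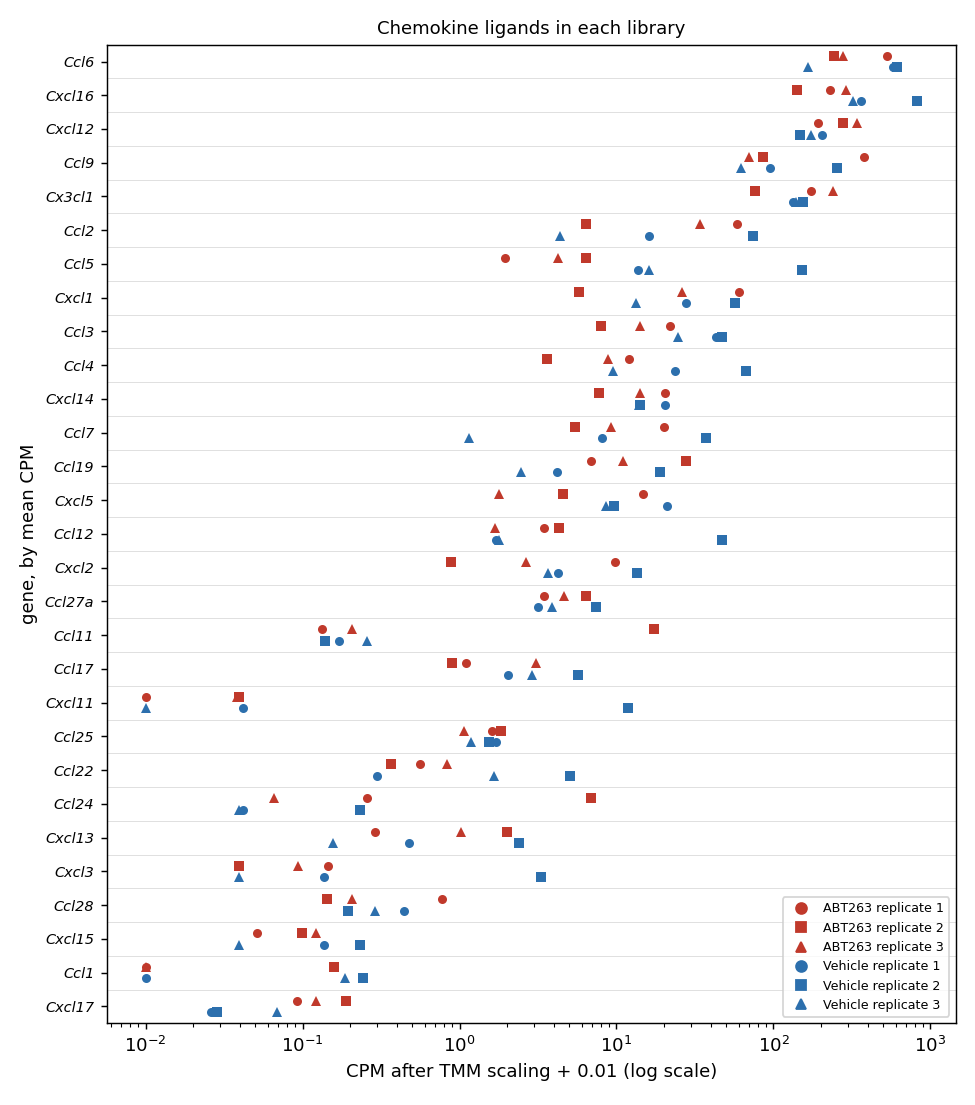
CPM after TMM scaling plus 0.01 on a log scale (x axis) of the 29 ligands with any counts (rows, by mean CPM), with ABT263 libraries in red above vehicle libraries in blue and a marker shape for each replicate. Ccl3, Ccl5 and Cxcl16 are the ligands tested whose groups do not overlap, all lower with ABT263, and Ccl11 and Ccl24 are high in ABT263 replicate 2 alone.

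Among receptors of lymphocyte and dendritic cell homing, Ccr7, Cxcr5 and Ccr6 were lower in every ABT263 library than in any vehicle library, while Ccr4 and Ccr9 overlapped. Ccr7, which guides T cells, B cells and mature dendritic cells to lymph nodes (chr11:99144196-99155077), had 0.579, 0.934 and 2.36 CPM in the ABT263 libraries and 2.58, 4.31 and 6.06 CPM in the vehicle libraries. The groups did not overlap, although ABT263 replicate 3 came close to vehicle replicate 1. Its log2 fold change was -1.74 (SE 0.62, unadjusted p = 0.0280), and -2.51 to -1.40 when single libraries were left out. Cxcr5, the B cell follicle receptor (chr9:44511787-44561877), had 0.920, 1.39 and 1.46 CPM against 1.58, 2.46 and 6.74 CPM, again with no overlap, and vehicle replicate 3 lay above the rest (log2 fold change -1.52, SE 0.60, unadjusted p = 0.0418; -0.69 without that library). Ccr6, a receptor of B cells, Th17 cells and dendritic cells (chr17:8236043-8257141), had 0, 7 and 7 counts (0, 0.104 and 0.0982 CPM) with ABT263 and 26, 32 and 65 counts (0.416, 0.297 and 0.951 CPM) with vehicle. Its log2 fold change of -3.06 (SE 1.13) rests on these few reads.

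All 8 B cell markers were highest in vehicle replicate 3, the library with the most Cxcr5, Ccr6 and Ccr7, and T cell and B cell sums were lower in every ABT263 library. Their part in the receptor levels was not tested. Ccr8, a receptor of skin T cells and Th2-type cells, was not past the filter, with 0, 4 and 2 counts in ABT263 libraries and 6, 82 and 17 in vehicle libraries. Ccr4, the receptor for Ccl17 and Ccl22, stood at 0.248, 0.741 and 0.140 CPM against 0.704, 0.111 and 0.512 CPM, with no separation. Ccr9, which guides thymocytes and gut T cells, showed 3.28, 17.5 and 5.08 CPM against 12.6, 3.65 and 12.6 CPM. Exons of other genes on either strand cover 21.5% of its exon bases, so its count is uncertain. Ccr9 was highest in ABT263 replicate 2, which also had the highest sum of the thymocyte list, a list that includes Ccr9 itself. That sum was 205 CPM in that library, 37.7 and 52.1 CPM in the other ABT263 libraries and 64.1 to 153 CPM with vehicle. Of the 8 thymocyte markers, 3 were highest in ABT263 replicate 2, 3 in vehicle replicate 1, and 1 each in vehicle replicates 2 and 3. The part of thymocyte markers in the level of Ccr9 was not tested.

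The Ccr7 ligand Ccl19 and the Cxcr5 ligand Cxcl13 had overlapping groups and positive log2 fold changes; whether ligand and receptor differ was not tested. Ccl19, a Ccr7 ligand of lymphoid stroma and mature dendritic cells (chr4:42754525-42756577), had 6.85, 27.6 and 11 CPM with ABT263, against 4.19, 19.0 and 2.47 CPM with vehicle. It was thus higher in each ABT263 library than in vehicle replicates 1 and 3, but vehicle replicate 2 lay above 2 of them (log2 fold change 0.82, SE 0.86; 2.18 without vehicle replicate 2). Of its transcript windows of 50 bases, 52.0% also occur in transcripts of other genes, so its count is uncertain. The other Ccr7 ligands, Ccl21a, Ccl21b and Ccl21c, had 0 counts in every library. Of their windows, 71.6% for Ccl21a and 100.0% for Ccl21b occur in transcripts of other genes, and Ccl21c had no match by symbol in the annotation. How reads that fit several genes were counted is not stated, so these zeros cannot be read as absence. The same holds for Ccl27b, at 0 with 98.1% of windows shared. Ccl20, the ligand of Ccr6, and Ccl26 had 0 counts too, with no window shared.

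Cxcl13, the ligand of Cxcr5 made by lymphoid stroma (chr5:95956951-95961068), was low throughout at 0.279, 2.0 and 1.01 CPM against 0.464, 2.39 and 0.146 CPM. Its highest libraries were both replicates 2, and its log2 fold change was 0.12 (SE 1.10). Ccl22 and Ccl17 are made by dendritic cells and some macrophages. Ccl22 was at 0.548, 0.356 and 0.827 CPM with ABT263 and 0.288, 5.01 and 1.65 CPM with vehicle, and Ccl17 at 1.10, 0.889 and 3.07 CPM against 2.02, 5.65 and 2.87 CPM. Both overlapped between groups and both peaked in vehicle replicate 2, with log2 fold changes of -2.01 (SE 0.96) for Ccl22 and -1.06 (SE 0.63) for Ccl17. Ccl1, the ligand of Ccr8, had no more than 25 counts in any library and 0 in ABT263 replicates 1 and 3 and vehicle replicate 1.

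Epithelial and thymic ligands differed little. Ccl25, the ligand of Ccr9, averaged 1.49 ± 0.402 CPM with ABT263 and 1.46 ± 0.268 CPM with vehicle (SD, n = 3 each), and Ccl27a averaged 4.82 ± 1.47 and 4.8 ± 2.29 CPM. The count of Ccl27a is uncertain, since 45.0% of its windows are shared with other genes. Ccl28, like Ccl27a a ligand of Ccr10, was at most 0.765 CPM. Their receptor Ccr10, known from skin-homing T cells and plasma cells (chr11:101172997-101175443), had 0.889, 1.44 and 1.08 CPM with ABT263 against 0.688, 0.631 and 0.410 CPM with vehicle. It was the receptor whose ABT263 libraries all lay above the vehicle libraries, at a low level (log2 fold change 0.98, SE 0.44, unadjusted p = 0.0624; 0.77 to 1.12 when single libraries were left out).

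**Figure D3:**
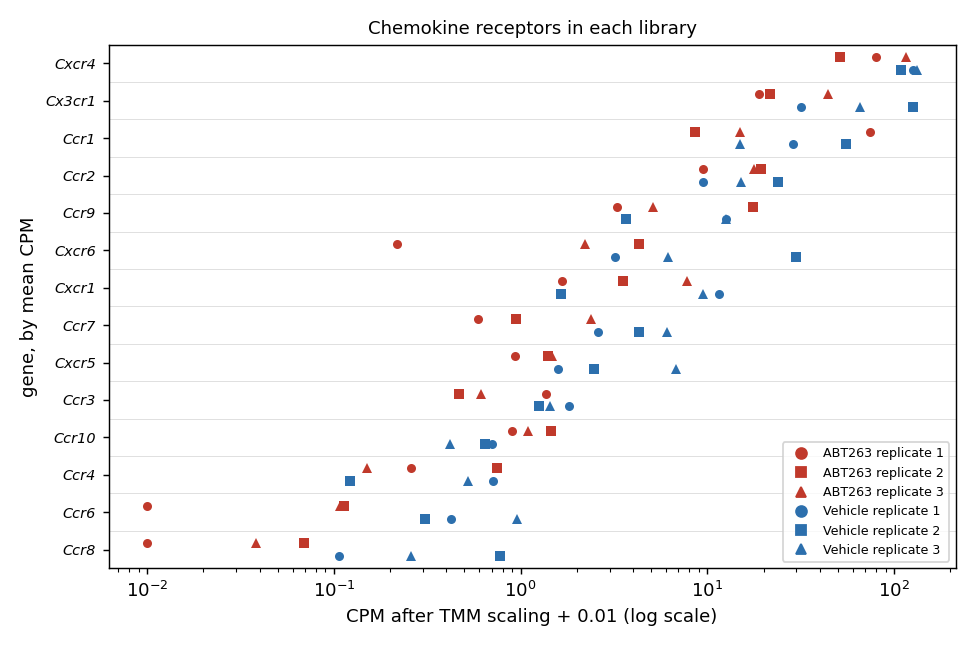
CPM after TMM scaling plus 0.01 on a log scale (x axis) of 14 of the 15 receptors (rows, by mean CPM), with ABT263 libraries in red above vehicle libraries in blue and a marker shape for each replicate. Ccr6, Ccr7 and Cxcr5 are lower in every ABT263 library than in any vehicle library, as is Ccr8, which was not tested, and Ccr10 is higher in every ABT263 library.

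Both membrane-bound chemokines of the mouse were abundant, and their receptors were lower on average with ABT263. Cxcl16, made by macrophages and also a scavenger receptor for oxidised lipoprotein (chr11:70453983-70459984), had 230, 140 and 291 CPM with ABT263 and 362, 820 and 320 CPM with vehicle. The groups did not overlap, with the nearest libraries, ABT263 replicate 3 and vehicle replicate 3, close together (log2 fold change -1.18, SE 0.46, unadjusted p = 0.0388; -0.63 without vehicle replicate 2). Exons of Zmynd15 on the opposite strand cover 18.3% of the exon bases of Cxcl16. The library kit does not mark strand, so strand cannot tell reads of these genes apart there. The strand setting of the counting is not given in the sources used here. The Cxcl16 receptor Cxcr6, found on T and NKT cells (chr9:123806475-123811760), had 0.207, 4.28 and 2.19 CPM against 3.20, 29.9 and 6.11 CPM. ABT263 replicate 2 lay above vehicle replicate 1, so these groups overlapped (log2 fold change -2.56, SE 1.21, unadjusted p = 0.0748; -1.07 without vehicle replicate 2). Macrophage and T cell sums were lower in the same libraries, and their part was not tested.

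Cx3cl1 (fractalkine), made by endothelium, smooth muscle and other stromal cells (chr8:94772009-94782427), stood at 174, 76.4 and 240 CPM with ABT263, both above and below the narrow vehicle range of 134, 153 and 139 CPM. Its log2 fold change was 0.20 (SE 0.40), or 0.55 without ABT263 replicate 2, its lowest library. Cx3cr1, the receptor for Cx3cl1 on monocytes and resident macrophages (chr9:119901616-120069879), had 19.0, 21.7 and 44.0 CPM with ABT263 and 31.6, 126 and 65.7 CPM with vehicle. ABT263 replicate 3 lay above vehicle replicate 1. The log2 fold change of Cx3cr1 was -1.40 (SE 0.56, unadjusted p = 0.0426), or -0.79 without vehicle replicate 2. Whether the fold changes of ligand and receptor differ was not tested.

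Cxcl12, the stromal ligand that retains Cxcr4-bearing cells (chr6:117168535-117181367), was higher on average with ABT263 and its receptor lower, neither beyond the spread between libraries. Cxcl12 had 193, 276 and 338 CPM with ABT263 and 204, 147.8 and 172 CPM with vehicle. ABT263 replicates 2 and 3 exceeded every vehicle library, and ABT263 replicate 1 did not (log2 fold change 0.63, SE 0.27, unadjusted p = 0.0538; 0.43 to 0.81 when single libraries were left out). The sum of 8 smooth muscle markers was likewise above every vehicle library in ABT263 replicates 2 and 3 and not in replicate 1. It was 2407, 15763 and 9743 CPM in ABT263 replicates 1 to 3 and 2608 to 3593 CPM with vehicle. Of these 8 markers, 1 was higher without overlap, against 5.68% of all genes tested. The sum of 8 fibroblast markers was 3816 to 6125 CPM with ABT263 and 2355 to 3602 CPM with vehicle, although each of the 8 overlapped. Neither list had a marker at 0 in all libraries, and their part in Cxcl12 was not tested. Cxcr4, the receptor with the highest level (chr1:128588199-128592293), had 79.9, 51.3 and 116 CPM against 126, 109 and 133 CPM. Only ABT263 replicate 3 reached into the vehicle range (log2 fold change -0.57, SE 0.31, unadjusted p = 0.106).

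Of the remaining ligands, Cxcl14, a chemokine of epithelium and stroma, averaged 14.2 ± 6.37 CPM with ABT263 and 16.2 ± 3.69 CPM with vehicle (SD, n = 3 each). Cxcl11, an interferon-induced ligand gene that the annotation lists as a polymorphic pseudogene, reached 11.7 CPM in vehicle replicate 2. It had no more than 2 counts in any other library. Whether it yields a working ligand in these mice is not shown. An opposite-strand gene covers 41.7% of its exon bases. Cxcl17, a mucosal chemokine, had 8, 12 and 8 counts with ABT263 and 1, 2 and 4 with vehicle, too few for the test.

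**Figure D4:**
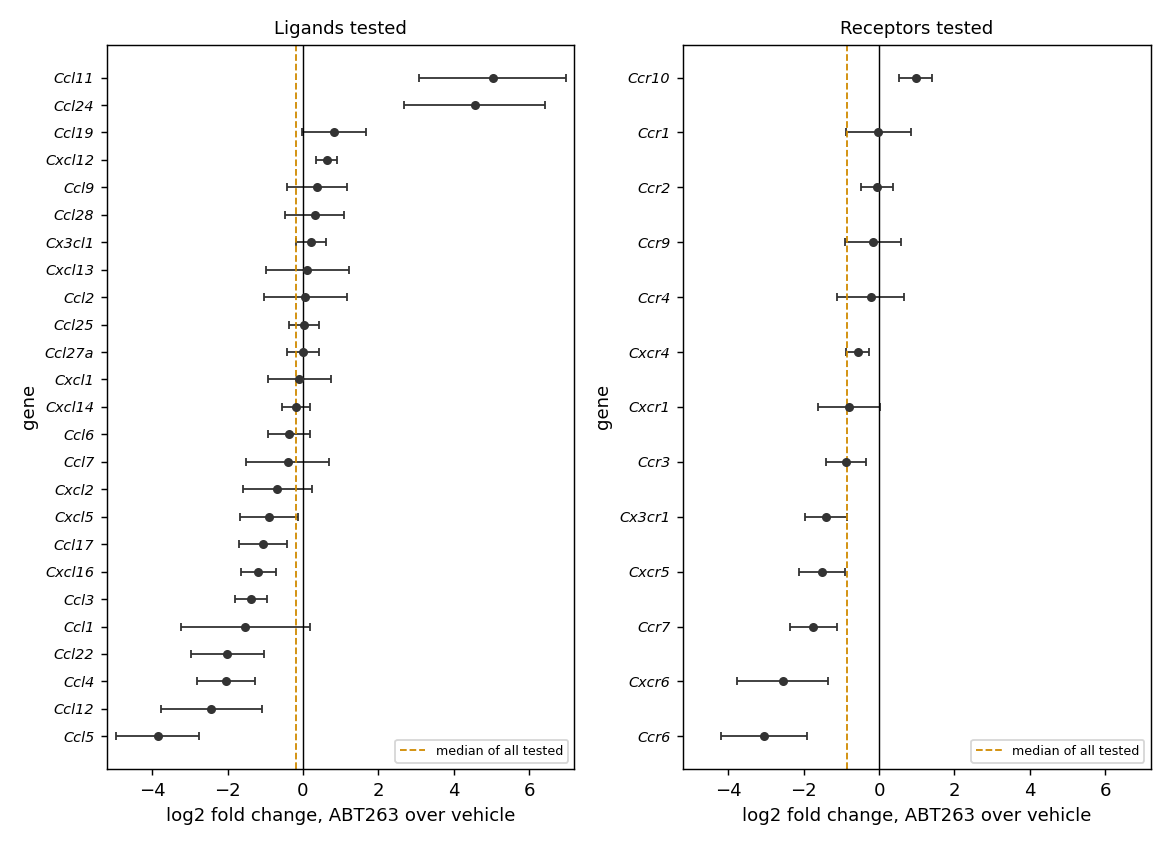
The log2 fold change of ABT263 over vehicle with its standard error (x axis) from the edgeR quasi-likelihood fit for the 25 ligands tested (left) and 13 of the 14 receptors tested (right), ordered by value; the dashed lines mark the medians over all tested, -0.19 and -0.84. No gene passes an adjusted p of 0.05, and Ccr10 is the receptor above 0.

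Per kilobase of exon, where genes can be compared, Ccl6 (195 CPM per kb with ABT263 and 251 with vehicle) and Cxcl16 (73.1 and 166) led the ligands, followed over all libraries by Ccl9, Cx3cl1, Ccl3, Ccl5, Ccl4, Ccl2 and Cxcl12 at between 51.9 and 27.2 CPM per kb. The order was not that of each group: Ccl5 stood at 4.35 CPM per kb with ABT263, below Ccl19 (17.5), Cxcl1 (16.4) and Ccl7 (14.5), and at 62.9 with vehicle, where vehicle replicate 2 was far above the rest. Neighbours in the order over all libraries from Ccl9 downwards lie within the spread of their own libraries. Among receptors Cxcr4 led with 45.5 CPM per kb in the ABT263 group and 67.7 in the vehicle group. Ccr1 and Cx3cr1, at 11.6 and 11.4 CPM per kb over all libraries, do not differ beyond their spread. Ccl6, Cxcl16 and Cxcl12 together made up 64.6% of the summed ligand CPM. The sum of all 15 receptors was 239, 152 and 258 CPM with ABT263 and 265, 571 and 322 CPM with vehicle. The ligand sum was 1748, 938 and 1356 CPM against 1561, 2565 and 969 CPM. Receptor sums did not overlap between the groups and ligand sums did. The receptor sums of ABT263 replicate 3 and vehicle replicate 1 were close, at 258 and 265 CPM. The 3 receptors of highest CPM made up 73.6% of the summed receptor CPM, and the groups of Cxcr4, the highest of them, overlapped.

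Neighbouring genes did not always share a pattern. Ccl5, Ccl9, Ccl6, Ccl3 and Ccl4 form a cluster on chromosome 11 (83525778 to 83664683), in which Ccl3 and Ccl5 were lower in all ABT263 libraries, while Ccl6 and Ccl9 overlapped. Ccl2, Ccl7, Ccl11, Ccl12 and Ccl1 form another on the same chromosome. There Ccl2 and Ccl7 shared their 2 highest libraries, Ccl12 peaked in vehicle replicate 2 and Ccl11 in ABT263 replicate 2. The receptors Ccr9, Cxcr6, Ccr1, Ccr3 and Ccr2 lie together on chromosome 9, and their log2 fold changes ran from -2.56 (Cxcr6) to -0.02 (Ccr1).

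Other genes of the chemokine system were read from 5 lists, of which 66 of 70 genes passed the filter. None was called by edgeR (0 of 66, against 0.0% of all genes). At an unadjusted p under 0.05 there were 11 on the lower side and 2 on the higher, against 3.68% and 4.7% of all genes. The list of receptor signalling genes, which couple chemokine receptors to G proteins, arrestins, lipid kinases and the cytoskeleton, had 21 of 24 negative log2 fold changes and a median of -0.48, against 49.9% and 0.00080 over all genes. In it 8 genes were lower in all ABT263 libraries and 2 were higher, against 6.31% and 5.68% of all genes. Gng2, a G protein gamma subunit, had 38.2, 27.1 and 34.2 CPM with ABT263 and 63.1, 73.1 and 47.0 CPM with vehicle (log2 fold change -0.88, SE 0.23, unadjusted p = 0.0070). Prex1, a Rac activator of leukocytes, had 111, 92.6 and 175 CPM against 269, 244 and 218 CPM (log2 fold change -0.95, SE 0.28, unadjusted p = 0.0124). Plcb2, a phospholipase of blood cells, had a log2 fold change of -1.19 (SE 0.40). Groups of these 3 genes did not overlap, and macrophage, T cell and B cell sums were lower in the same libraries, a part that was not tested.

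Atypical receptors, which bind and clear chemokines without G protein signalling, and related receptors had a positive median of 0.63, with 5 of 8 positive. Ackr3, the scavenging receptor for Cxcl12, had 162, 167 and 72.6 CPM with ABT263 and 87.5, 67.5 and 83.3 CPM with vehicle, so ABT263 replicate 3 lay within the vehicle range (log2 fold change 0.75, SE 0.34). Pitpnm3, described as a receptor for human CCL18, was higher in all ABT263 libraries (log2 fold change 1.14, SE 0.41, unadjusted p = 0.0282). Ccrl2, which binds chemerin, was lower in all 3 (log2 fold change -0.49, SE 0.20, unadjusted p = 0.0466).

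Cytokines and regulators that induce chemokines had 16 of 19 negative log2 fold changes and a median of -0.36. Ltb, lymphotoxin beta, which drives Ccl19 and Cxcl13 in lymphoid stroma, had 1.42, 4.27 and 3.21 CPM with ABT263 and 5.79, 13.4 and 15.7 CPM with vehicle. Its groups did not overlap (log2 fold change -1.97, SE 0.54, unadjusted p = 0.00917), and DESeq2 gave an adjusted p of 0.0368 where edgeR gave 0.592, the only gene of the 5 lists that either tool called. Tnf and Il1b were high in vehicle replicate 2, at 35.8 and 105 CPM, where the other 5 libraries had at most 6.42 and 12.7 CPM. The NF-kappa B subunit gene Rela had a log2 fold change of -0.11 (SE 0.19), and Nfkb1 had -0.14 (SE 0.17).

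Among 6 genes of other chemoattractants and their receptors, Xcl1, a product of activated T and NK cells, had log2 fold change -3.35 (SE 1.34), its receptor Xcr1, a marker of cross-presenting dendritic cells, -2.64 (SE 1.25), and the platelet chemokine Ppbp -1.72 (SE 0.88). Groups overlapped for all 6, and Xcl1 and Xcr1 peaked in vehicle replicate 2 at 7.25 and 7.90 CPM. Proteases that trim or shed chemokines had 7 of 9 negative values and a median of -0.21. Elane, neutrophil elastase, had -2.22 (SE 0.73) at no more than 0.334 CPM and passed the filter through the vehicle libraries alone, and Prtn3, proteinase 3, had -1.36 (SE 0.74). Dpp4, which cleaves Cxcl12, had 1.70 (SE 1.32) and stood at 40.3 CPM in ABT263 replicate 2 and at most 5.41 CPM elsewhere.

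**Figure D5:**
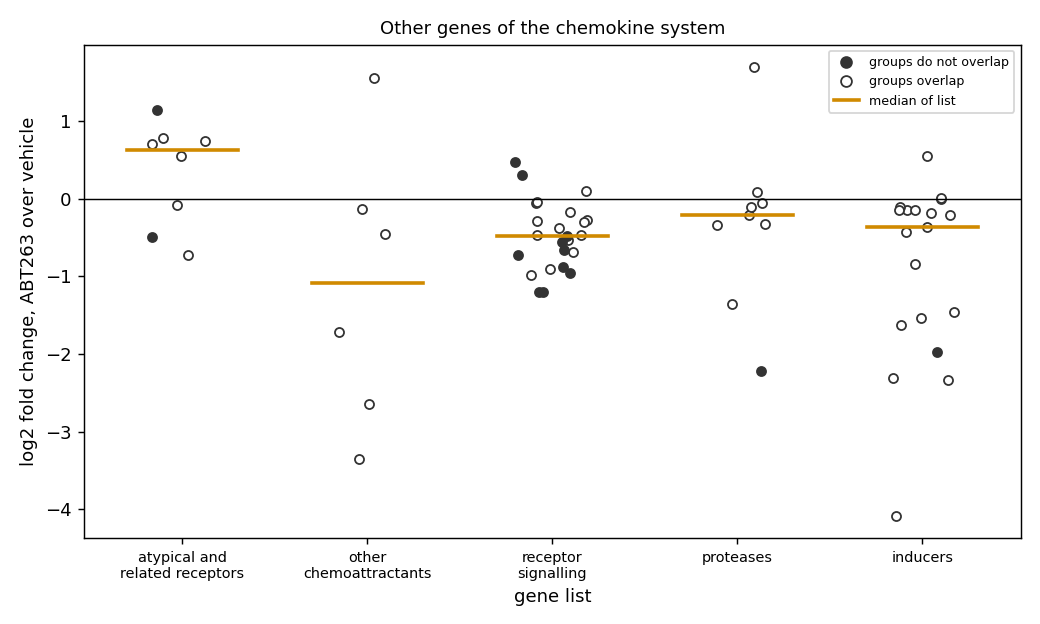
The log2 fold change of ABT263 over vehicle (y axis) of the 66 tested genes in 5 lists of the chemokine system (x axis); filled points are genes whose ABT263 and vehicle libraries do not overlap, and bars are list medians. The receptor signalling list has its median at -0.48 with 8 genes lower in all ABT263 libraries, and the atypical receptor list has its median at 0.63.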

How the data were processed

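RNA of aortic arch plaque was sequenced in 6 libraries (TruSeq RNA Library Prep Kit v2, per the labels' protocols; this kit does not mark strand). The authors deposited raw counts per gene symbol. Per the submitters' processing notes the tools were Bowtie2 2.2.6, TopHat2 2.0.14 and featureCounts 1.4.6 of Subread, and the build mm10. Annotation, read layout and the treatment of reads that map to several genes are not stated in the sources used here. In each library 2.44 to 3.26 times as many genes had a count of 2 as a count of 1, so low counts come largely in pairs, and counting error is larger than the counts imply.

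Groups came from sample titles, and replicates were numbered in accession order. Counts were filtered with filterByExpr (minimum count 10, minimum total 15; 15222 genes), scaled by TMM and tested with the quasi-likelihood test of edgeR 4.0.16 in R 4.3.3 on the group alone (4 residual degrees of freedom), with Benjamini-Hochberg adjustment over all genes. The SE was taken as |log2 fold change|/√F. DESeq2 1.42.0, limma-voom (limma 3.58.1), other scalings and filters, and fits without single libraries were alternatives. The procedure was tested on simulated data. GENCODE M21 (GRCm38, the assembly of mm10) matched 49 of the 50 genes by symbol. It gave positions, merged exon lengths and shared windows. Promoters are from RefSeq (34 of 50 matched).

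The genes and lists were chosen with earlier results of these data known. Named genes were those without overlap between groups (10 of smallest p per direction), the 8 ligands and 6 receptors of highest level per kilobase and a list named outright. In other lists they were the 3 of smallest p. Further genes were named after their values were seen, to account for the whole family. One receptor of the family enters the counts, sums and medians but is not reported here by name.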

Additional observations from a re-analysis of the deposited data

How the results depend on the processing

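No paired analysis was possible because the sample titles give the groups no shared replicate numbers. The edgeR test called 0 genes in the family and 0 genes in all under each scaling, filter and left-out library, DESeq2 called 153 genes in all and 0 of the family, and limma-voom called 0 in both. Genes of the family at an unadjusted p under 0.05 numbered 8 on the lower side and 2 on the higher; these were 5 and 0 by limma-voom, 7 and 0 with at least 1 CPM required in 3 libraries, 3 and 3 without both replicates 2, and 3 to 9 and 0 to 3 when single libraries were left out. The median log2 fold change of ligands (-0.19) ranged from -0.84 to 0.17 with single libraries left out and was 0.21 without both replicates 2, so its sign is not stable. That of receptors (-0.84) ranged from -1.27 to -0.64 and was -0.94 without both replicates 2. As alternatives chosen after seeing the data, 10 to 13 of 14 receptors had a negative value over all settings but the stricter filter, which kept 11 receptors, all negative, and the count of genes lower in every ABT263 library (6) was 7 to 10 with 1 of ABT263 replicate 1, ABT263 replicate 2 or vehicle replicate 2 left out (9.17% to 14.4% of all genes tested, against 6.31% with none left out) and 12 without both replicates 2 (19.7%).

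Of 283 values of the 22 tested genes named by rule, 20 turned their sign. Over single left-out libraries Ccl2 ranged from -0.64 to 1.69, Ccl9 from -0.84 to 1.18, Ccr1 from -1.50 to 0.58, Ccr2 from -0.32 to 0.34, Cx3cl1 from -0.18 to 0.55, Cxcl1 from -1.05 to 0.58 and Cxcl13 from -0.65 to 1.84. Without both replicates 2, Ccl6 was 0.13, Ccr1 1.03, Ccr2 0.15 and Cxcl1 1.07. The cause was not tested. Few reads in most libraries limit Ccl1, Ccr4, Ccr6, Ccr8, Cxcl3, Cxcl11, Cxcl15 and Cxcl17. Of these, Cxcl3 and Cxcl11 had 354 and 1266 counts in vehicle replicate 2.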
